A study of Danio rerio with 6 samples.

Results

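The genes described here are 44 zebrafish genes that copy DNA or supply its building blocks, out of 23876 genes in the deposited table. They were taken by symbol: the origin recognition and licensing genes, the 6 subunits of the MCM helicase, the factors that activate it, the replicative polymerases and primase, the sliding clamp and its loader, the single-strand binding proteins, 2 enzymes that finish lagging-strand fragments, and 6 enzymes of deoxynucleotide supply. All 44 were found and all 44 passed the filter on low values, each represented by its transcript with the highest mean. RNA was sequenced from whole Danio rerio larvae at 7 days post fertilization, kept at 28.5 °C. The control group was wild type (labelled wt) and the other group homozygous for a mutation of znf469 (labelled znf469-KO; the series text names the line znf469-4del), with 3 libraries a group and 50 pooled larvae in each library. The labels name no further allele, treatment or strain background, and whether each pool had its own clutch of parents is not stated; the p-values therefore measure the spread between pools alone.

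DNA replication starts where the origin recognition complex, with cdc6 and cdt1, loads the ring-shaped MCM helicase on DNA before S phase. Kinases of S phase, together with mcm10, cdc45 and the GINS complex, turn the loaded ring into a moving helicase, and polymerases alpha, delta and epsilon then copy the opened strands with the help of the clamp pcna. Many of these genes are switched on together by E2F factors when a cell enters the cycle. At this age zebrafish larvae still grow, with dividing cells at the retinal margin, along the ventricles of the brain, in the gut, in blood-forming tissue and in the skin.

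The deposited values were normalized read counts, and all levels below are on that scale. Total reads over all transcripts were 17023269 to 19156581 per library. Replicate 1 of wild type and replicate 2 of the mutant lay far from their groups on the second principal component of all 22803 genes tested (25.5% of the variance), with scores of 73.1 and -63.0. The transcript of znf469 was at 296, 198 and 206 in wild type and at 233, 186 and 209 in the mutant, with overlapping groups (log2 fold change -0.13, SE 0.20, Benjamini-Hochberg adjusted p = 0.786 with limma). Since a mutation need not alter the amount of its transcript, the genotype labels are not tested by this value.

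Some of the replication genes fell in the mutant, and none rose. Of the 44 members, 11 passed in that direction and 0 in the other, while over all genes tested 2.18% were lower and 2.31% higher (limma with Benjamini-Hochberg adjustment over 22803 genes, threshold 0.05). The members that fell were mcm2, mcm3, mcm5, mcm6, pola1, pole, pcna, lig1, rrm1, tyms and tk1. At an unadjusted p under 0.05 (limma), 21 members were lower and 0 higher, beside 9.17% and 9.03% of all genes. On the recovered reads, edgeR called 11 members lower and 0 higher (2.21% and 2.46% of all genes), and DESeq2 12 and 0 (3.21% and 3.49%). The median log2 fold change of the 44 members was -0.66, against -0.0015 over all genes tested, and 40 members had a negative and 4 a positive value. In 26 members each mutant library was below each wild type library, a pattern found in 11.8% of all genes. In 1 member, orc2, each mutant library was above each wild type library, as in 11.6% of all genes. Summed over the members, the level was 4631, 4953 and 5481 in wild type against 3024, 3918 and 2794 in the mutant. The mutant mean was 64.6% of the wild type mean (3245 ± 594 against 5022 ± 429, SD, n = 3), and the groups did not overlap. In whole larvae, fewer dividing cells and less RNA in each dividing cell cannot be told apart.

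**Figure D1:**
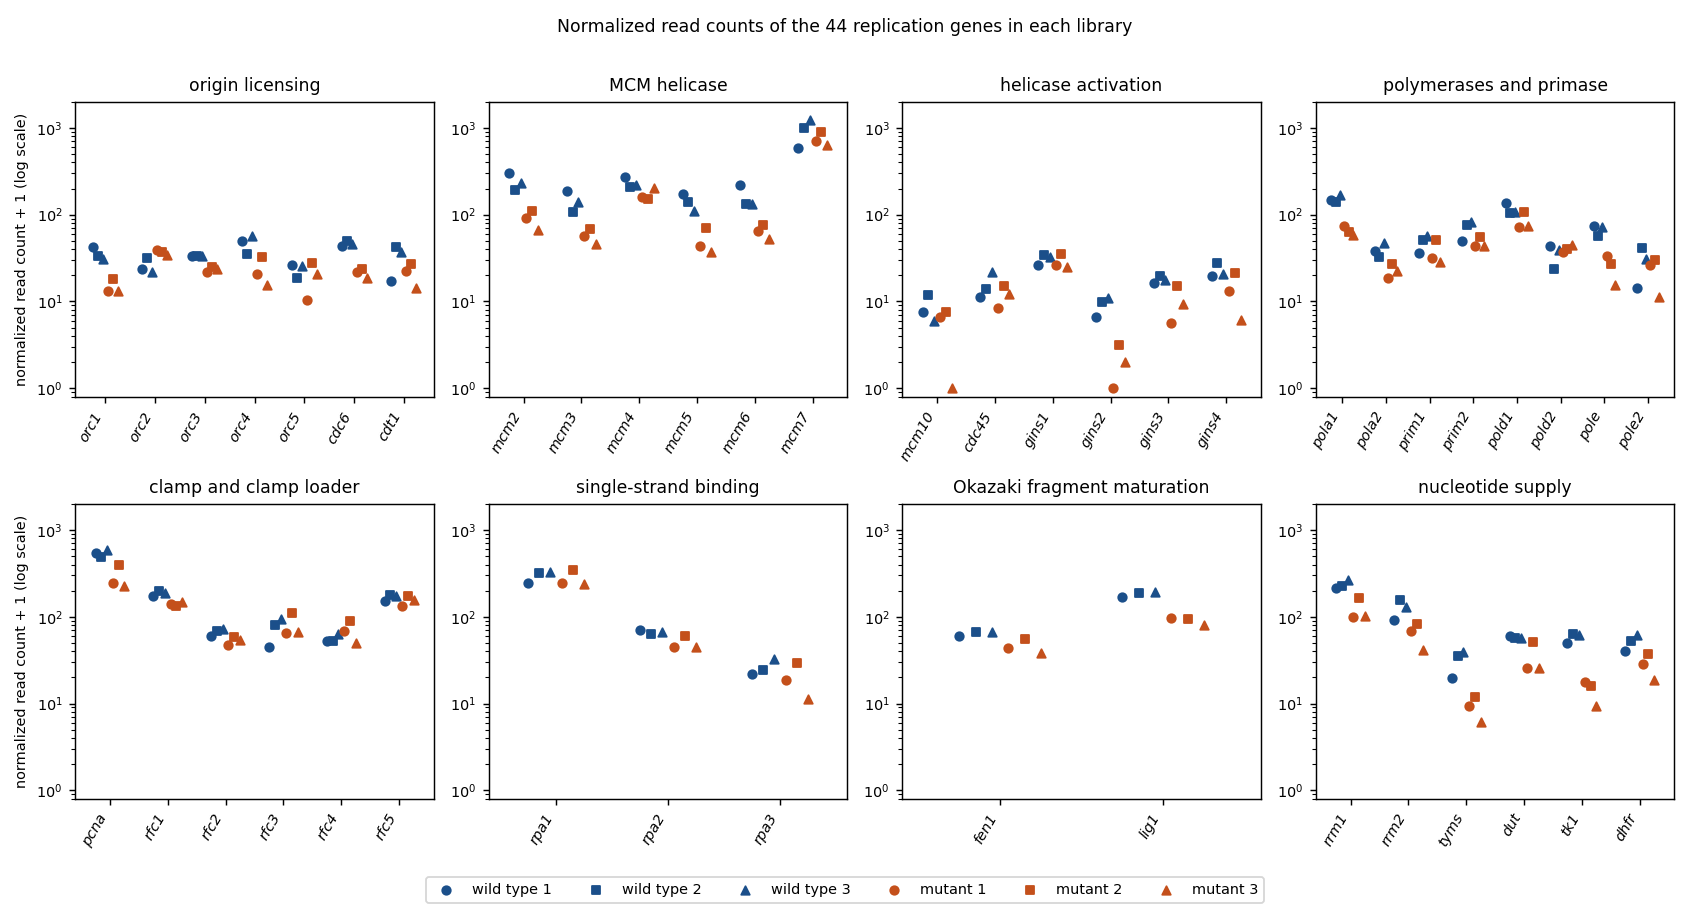
Normalized read count plus 1 on a log scale for each of the 44 genes in each of the 6 libraries, in 8 panels by role; blue symbols are wild type and orange symbols mutant libraries, and the symbol shape gives the replicate. Wild type and mutant libraries part widely for mcm2, mcm3, mcm5, mcm6, pola1, lig1, tyms and tk1. They overlap for rfc3, rfc4, rfc5, rpa1 and rpa3, and lie close together without overlap for rfc1, rfc2 and rpa2.

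**Figure D2:**
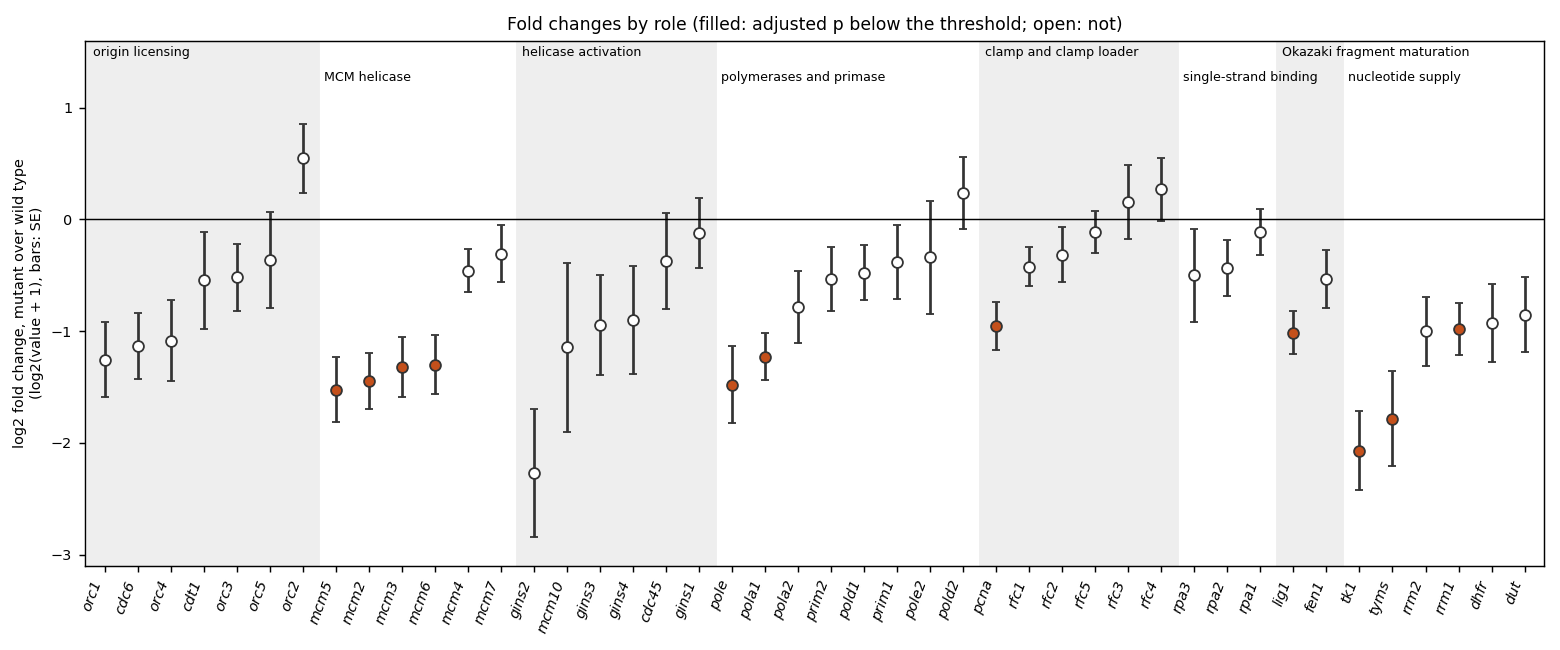
Log2 fold change, mutant over wild type, on the log2(value + 1) scale, with bars for the SE (3 against 3 libraries), ordered by size within each role; filled points have an adjusted p below 0.05. The 11 filled points lie between -2.07 and -0.95, and the 4 points above 0 are open.

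Of the licensing genes, none passed (0 of 7), although 6 had negative values. Counts of called members by role stand beside 2.18% of all genes lower and 2.31% higher by limma. With 2 to 8 members in a role, 0 called is about what the share over all genes gives. The gene orc1, the largest subunit of the origin recognition complex, was at 41.5, 32.4 and 29.7 in wild type and at 12.2, 17.2 and 12.4 in the mutant. The groups lay well apart, but the change of -1.25 (SE 0.34) missed the threshold (Benjamini-Hochberg adjusted p = 0.0683 in limma). The loader cdc6 showed the same picture, with 42.5, 49.0 and 44.5 against 20.6, 22.6 and 17.5 (-1.13, SE 0.29, limma adjusted p = 0.0606). Its partner cdt1 was at 16.1, 41.2 and 36.6 in wild type and at 21.5, 25.9 and 13.4 in the mutant, and wild type replicate 1 lay below 2 of the mutant libraries. Among the other subunits of the complex, orc4 had a log2 fold change of -1.08 (limma adjusted p = 0.139), orc3 of -0.52 and orc5 of -0.36. The subunit orc2 was the exception in direction, at 22.7, 30.4 and 20.8 in wild type and at 38.4, 36.6 and 33.0 in the mutant (0.55, SE 0.31, limma adjusted p = 0.392). The ratio of orc2 to orc1 within a library, which does not depend on the scaling of libraries, was 0.545 to 0.939 in wild type against 2.13 to 3.15 in the mutant. This pair was picked after its values were seen, so the ratio is given without a test. In the authors' deposited table, orc1 and cdc6 had q-values of 0.0289 and 0.0213, with log2 fold changes of -1.32 and -1.16.

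The MCM helicase held the most members that passed, 4 of 6, where 2.18% of all genes were lower. The subunit mcm2 was at 298, 191 and 231 in wild type and at 89.9, 109.9 and 64.9 in the mutant. All mutant libraries were below all wild type libraries, and the fall of 240.1 ± 54.2 to 88.3 ± 22.5 (SD, n = 3) was -1.44 on the log2 scale (SE 0.25, Benjamini-Hochberg adjusted p = 0.0116 in limma). The same order held for mcm3, at 185, 107 and 139 against 56.2, 66.8 and 45.3 (-1.32, SE 0.27, limma adjusted p = 0.0217). The subunit mcm5 was at 171, 138 and 109.8 against 42.2, 69.0 and 36.1 (-1.52, SE 0.29, limma adjusted p = 0.0183). For mcm6 the values were 219, 133 and 132 against 64.6, 75.4 and 51.5 (-1.30, SE 0.27, limma adjusted p = 0.0228). Within a library, the ratios between these 4 subunits of a single ring overlapped between the groups in all 3 pairs taken against mcm3, and that of mcm5 varied most: mcm2 over mcm3 was 1.61 to 1.79 in wild type against 1.43 to 1.65 in the mutant, and mcm6 over mcm3 was 0.95 to 1.25 and 1.13 to 1.15, and mcm5 over mcm3 was 0.793 to 1.29 in wild type (SD 0.26, n = 3) and 0.75 to 1.03 in the mutant.

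The other two subunits of the ring moved less. The level of mcm4 was 269, 209.9 and 221 in wild type and at 160.2, 149.8 and 199.9 in the mutant. The libraries did not overlap, but the change of -0.46 (SE 0.19, 95% interval -0.88 to -0.03) missed the threshold (limma, Benjamini-Hochberg adjusted p = 0.237). The level of mcm7 was 593, 1010.1 and 1239.9 in wild type and at 706, 889 and 627 in the mutant, with wild type replicate 1 below all 3 mutant libraries (-0.31, SE 0.26, 95% interval -0.88 to 0.27, limma adjusted p = 0.587). In that wild type library mcm2, mcm3, mcm5 and mcm6 were at their highest and mcm7 at its lowest. The ratio of mcm7 to the mean of those 4 genes was 2.72, 7.09 and 8.12 in wild type and at 11.2, 11.1 and 12.7 in the mutant. For mcm4 the ratio was 1.23, 1.47 and 1.45 against 2.53, 1.87 and 4.04. Neither ratio overlapped between groups. The split of the ring into 4 and 2 subunits was made after the values were seen, and the difference between the subunits was not tested. The calls of the 4 subunits were not kept in every fit with 1 library left out. Their log2 fold changes in those fits were -1.61 to -1.24 for mcm2 and -1.51 to -1.12 for mcm3. For mcm5 they were -1.79 to -1.33 and for mcm6 -1.43 to -1.06. Without mutant replicate 3, where 0.755% of all genes were called lower, all 4 calls were lost (limma adjusted p = 0.0538 for mcm2). Those of mcm3, mcm5 and mcm6 were lost also without wild type replicate 2 or mutant replicate 1, and that of mcm3 without wild type replicate 3 (adjusted p from 0.0519 to 0.107 in the fits in which these 3 were lost).

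**Figure D3:**
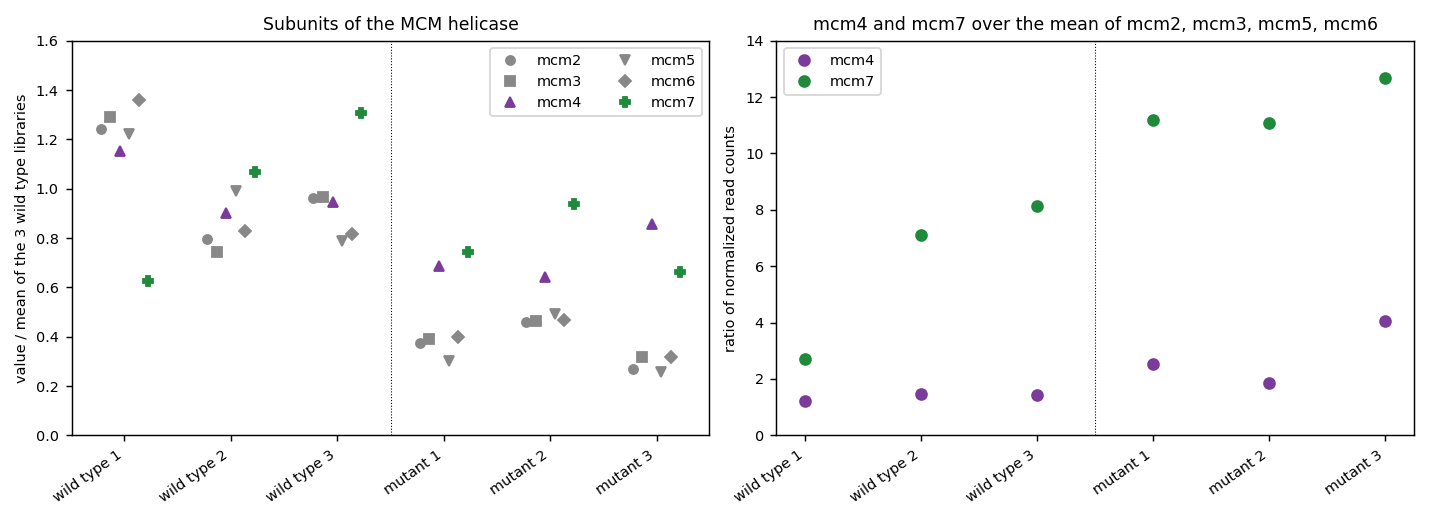
Left, the normalized read count of each MCM subunit divided by its mean over the 3 wild type libraries, by library; right, the ratio of mcm4 and of mcm7 to the mean of mcm2, mcm3, mcm5 and mcm6 within each library, without error bars because each point is 1 library. The grey points fall together in the mutant libraries, while mcm7 is lowest in wild type replicate 1, and its ratio is 2.72 to 8.12 in wild type against 11.1 to 12.7 in the mutant.

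None of the 6 genes that activate the helicase passed (0 of 6), and all 6 had negative values. Few reads lay behind most of them. The GINS subunit gins2 was at 5.67, 8.83 and 9.90 in wild type and at 0, 2.15 and 1.03 in the mutant, which was 25 reads against 3 in all. The groups did not overlap, and the ratio of mutant to wild type was 0.125 with an exact counting interval of 0.0242 to 0.410 (95%, counting error only). In limma it had a log2 fold change of -2.27 (SE 0.57, Benjamini-Hochberg adjusted p = 0.0542). Its partners gins3 and gins4 were at -0.95 and -0.90 with wide errors (SE 0.45 and 0.48), and gins1 was at -0.12 (95% interval -0.82 to 0.58). The helicase cofactor cdc45 was at 10.4, 12.7 and 20.8 against 7.49, 14.01 and 11.3, with overlapping groups (-0.37, SE 0.43). The level of mcm10, which links the helicase to polymerase alpha, was 7.45 ± 3.01 in wild type and 4.03 ± 3.51 (SD, n = 3) in the mutant, and mutant replicate 3 had no read of it.

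Among the polymerases, the large subunits of alpha and epsilon fell. The catalytic subunit of polymerase alpha, pola1, which extends the primers that start each new strand, was at 147, 138 and 167 in wild type and at 73.1, 62.5 and 56.7 in the mutant. All mutant libraries were below all wild type libraries (-1.23, SE 0.21, Benjamini-Hochberg adjusted p = 0.0113 in limma). The catalytic subunit of polymerase epsilon, pole, which copies the leading strand, was at 73.7, 55.9 and 70.3 against 32.8, 25.9 and 14.4, again without overlap (-1.48, SE 0.35, limma adjusted p = 0.0404). Their smaller partners did not pass. The accessory subunit pola2 was at 36.8, 31.4 and 46.5 against 17.8, 25.9 and 21.6 (-0.78, SE 0.32, limma adjusted p = 0.225), and pole2 was at 27.7 ± 13.6 against 21.6 ± 9.93 (SD, n = 3; -0.34, SE 0.51). The primase subunits prim1 and prim2, which make the RNA primers, were at -0.38 (SE 0.33) and -0.53 (SE 0.28). Polymerase delta, which copies the lagging strand, showed no change that could be detected: its catalytic subunit pold1 was at 137, 103 and 106.9 against 71.2, 107.7 and 72.1 (-0.48, 95% interval -1.02 to 0.07), and pold2 was at 0.24 (95% interval -0.48 to 0.95). The call of pole was lost with any of the 6 libraries left out (limma adjusted p from 0.0508 to 0.139) and with the transcripts of each gene summed (0.0536). As pole has 1 transcript, only the values of other genes differed in the summed fit. The call of pola1 was lost without replicate 2 or 3 of wild type or replicate 3 of the mutant (limma adjusted p from 0.0544 to 0.0672).

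The sliding clamp and its loader parted. The clamp pcna, which holds polymerases on DNA and is used widely as a marker of dividing cells, was at 539, 487 and 591 in wild type and at 241, 390.0 and 226 in the mutant. Mutant replicate 2 was the highest mutant library, yet below all wild type libraries, and the fall was -0.95 (SE 0.22, Benjamini-Hochberg adjusted p = 0.0359 in limma). Of the 5 subunits of replication factor C, the complex that opens the clamp and sets it on DNA, none passed (0 of 5). The large subunit rfc1 was nearest, at 173, 197 and 186 against 138, 130.4 and 145 (-0.42, SE 0.18, limma adjusted p = 0.229), without overlap. The subunits rfc2 and rfc5 were at -0.31 and -0.11, and for rfc5 the 95% interval was -0.53 to 0.30. The subunits rfc3 and rfc4 had positive values, 0.16 and 0.27, with mutant replicate 2 the highest of all 6 libraries in both (109 for rfc3 and 89.4 for rfc4). The mean of the 5 subunits over pcna was 0.177 to 0.234 in wild type against 0.287 to 0.414 in the mutant, a ratio chosen after the values were seen and not tested. The pcna call was lost without replicate 2 or 3 of wild type or replicate 1 or 3 of the mutant (limma adjusted p from 0.118 to 0.156), and with the transcripts of each gene summed (0.0535). As pcna has 1 transcript, only the values of other genes differed in the summed fit.

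The 3 subunits of replication protein A, which coats single-stranded DNA, did not pass (0 of 3). The large subunit rpa1 was at 243, 320 and 326 in wild type and at 245, 345 and 238 in the mutant, so the groups lay on top of each other (-0.11, 95% interval -0.56 to 0.34, Benjamini-Hochberg adjusted p = 0.833 in limma). The middle subunit rpa2 was at -0.43 (SE 0.25) without overlap of the groups, and rpa3 at -0.50 (SE 0.42) with overlap. These proteins also serve in DNA repair and recombination outside S phase, as do some of the replication factor C subunits.

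Of the pair of enzymes that join lagging-strand fragments, the DNA ligase lig1 fell. It was at 167, 186 and 190.0 in wild type and at 96.5, 92.7 and 79.4 in the mutant. The replicates of each group lay close together (181 ± 12.3 and 89.5 ± 8.99, SD, n = 3), and the change was -1.01 (SE 0.19, Benjamini-Hochberg adjusted p = 0.0167 in limma). The flap endonuclease fen1, which trims the fragments before ligation, was at 59.5, 65.7 and 66.3 against 42.2, 53.9 and 37.1 (-0.53, SE 0.26, limma adjusted p = 0.321), without overlap. The lig1 call was lost without replicate 2 or 3 of wild type or replicate 1 or 3 of the mutant (limma adjusted p from 0.0503 to 0.117).

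Nucleotide supply had the lowest summed level relative to wild type of the 8 roles, at 47.9%. In all 6 of its genes each mutant library was below each wild type library, a pattern found in 11.8% of all genes. A sum weighs the genes with most reads, and by median log2 fold change the MCM helicase was lower (-1.31 against -0.99). The 3 nucleotide supply genes that passed were tk1, tyms and rrm1. Thymidine kinase, tk1, which salvages thymidine, was at 49.1, 61.8 and 61.4 in wild type and at 16.9, 15.08 and 8.25 in the mutant. It had the most negative value of the 11 called members, -2.07 (SE 0.35, Benjamini-Hochberg adjusted p = 0.0108 in limma), from 57.4 ± 7.20 to 13.4 ± 4.55 (SD, n = 3). Thymidylate synthase, tyms, which makes thymidylate from deoxyuridylate, was at 18.9, 34.3 and 38.6 against 8.43, 10.8 and 5.15 (-1.78, SE 0.43, limma adjusted p = 0.0456). The large subunit of ribonucleotide reductase, rrm1, which turns ribonucleotides into deoxyribonucleotides, was at 215, 225 and 265 against 97.4, 165 and 102 (-0.98, SE 0.23, limma adjusted p = 0.0429). Its small subunit of S phase, rrm2, was at 91.6, 155 and 129 against 68.4, 80.8 and 40.2. The estimate of -1.0003 was close to that of rrm1, but its error was wider (SE 0.31, limma adjusted p = 0.107). The dUTPase dut, which keeps uracil out of DNA, was at 59.5, 55.9 and 56.4 against 24.4, 50.6 and 24.7 (-0.85, SE 0.33, limma adjusted p = 0.203), with mutant replicate 2 close to wild type. Dihydrofolate reductase, dhfr, which regenerates the folate used by tyms, was at 39.7, 52.0 and 61.4 against 27.2, 36.6 and 17.5 (-0.92, SE 0.35, limma adjusted p = 0.183). The tk1 call was lost without wild type replicate 2 (limma adjusted p = 0.0767), and those of tyms and rrm1 without replicate 2 or 3 of wild type or replicate 1 or 3 of the mutant (0.114 to 0.2205 for tyms and 0.145 to 0.172 for rrm1). Summing the transcripts of each gene also ended the calls of rrm1 (limma adjusted p = 0.0636) and tyms (0.05497), and limma-voom that of tyms (0.0551). Both genes have 1 transcript, so in the summed fit only the values of other genes differed.

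The libraries of a group were not alike in these genes. Of the 3 mutant libraries, replicate 2 had the highest value for 36 of 44 members, and for 50.6% of all genes. Mutant replicate 3 had the lowest for 27 members, and for 31.8% of all genes. In wild type, replicate 1 had the lowest value for 26 members, and for 43.6% of all genes. The median difference of the members from their wild type mean, on the log2 scale, was -0.80, -0.26 and -1.12 in mutant replicates 1 to 3. Without wild type replicate 2, 1 member was lower (mcm2; 0.439% of all genes), and without mutant replicate 3, 1 (tk1; 0.755%). Without mutant replicate 1 the number was 3 (0.945%), and without wild type replicate 3 it was 4 (0.807%). Leaving out wild type replicate 1 gave 11 (2.37%) and leaving out mutant replicate 2 gave 12 (3.44%). With both of the latter left out, 22 members were lower, the 11 named above among them, beside 11.8% of all genes, and the median was -1.07. Removing a library for its distance from its group narrows the spread that the test reads. Here it also widened the difference between the groups. The removed wild type library was most often the lowest of its group, and the removed mutant library most often the highest. The 11 added in that fit were cdc6, cdt1, dhfr, dut, gins2, mcm7, orc1, orc4, prim2, rpa1 and rrm2.

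**Figure D4:**
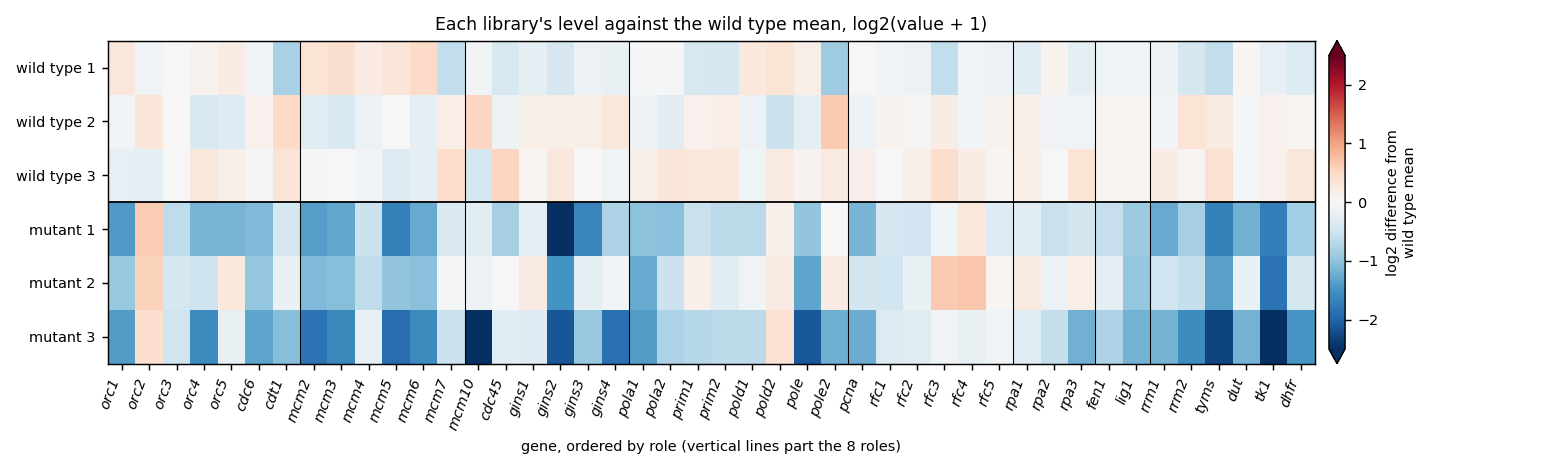
Log2(value + 1) of each gene in each library minus the mean of the 3 wild type libraries, with red above and blue below it; values beyond 2.5 on either side have the end colour, and vertical lines part the 8 roles. Mutant replicate 2 is the palest of the mutant rows (median -0.26) and mutant replicate 3 the darkest (median -1.12), while the column of orc2 is red in all 3 mutant rows.

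**Figure D5:**
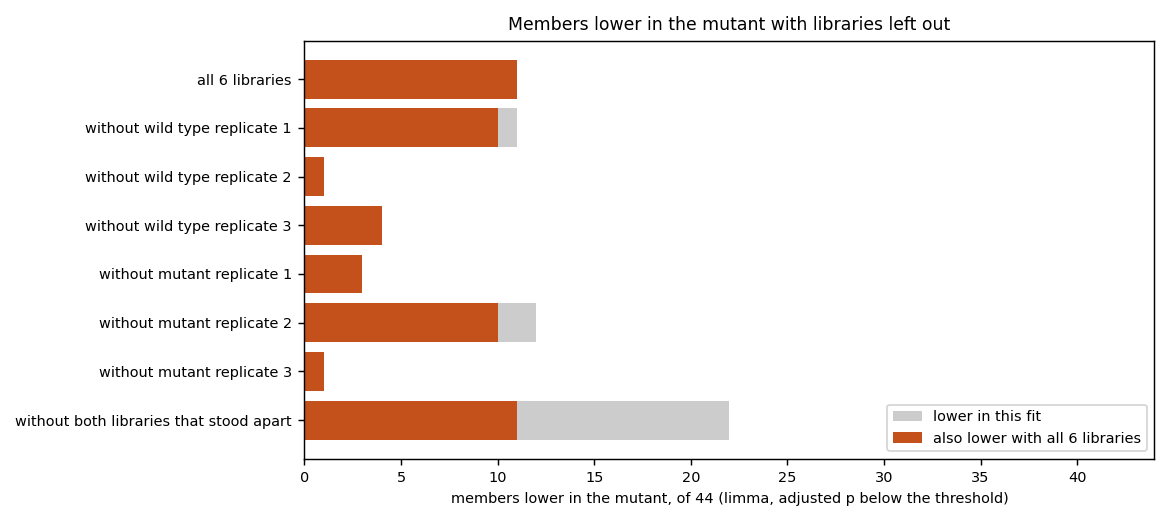
Number of the 44 members that were lower in the mutant by limma with all 6 libraries and with the libraries named at the left removed; the orange part counts members also lower with all 6 libraries, and there are no error bars because each bar is a count. The bar is shortest, at 1, without wild type replicate 2 or mutant replicate 3, and longest, at 22, without wild type replicate 1 and mutant replicate 2.

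The counts behind the members, and with them the precision, covered a wide range. Mean normalized counts over the 6 libraries ran from 4.60 to 844. Of the 11 members with a mean of 100 or more, 6 were called, against 4 of 20 with a mean of 30 to under 100 and 1 of 13 with a mean under 30. Over all genes tested 2.18% were lower by limma, a share that was not split into these groups by level. Counting error alone gave a median SE of the log2 fold change of 0.093 in the first of these groups and 0.26 in the last, where it reached 0.88. The fitted SE, which also holds the spread between pools, had medians of 0.21 and 0.43. Depth alone did not part called from uncalled members: mcm7 and rpa1, with changes of -0.31 and -0.11, were in the first group and were not called, while tyms was called in the last. No called member had a change smaller than 0.95 in size. By the authors' deposited table, a q-value under 0.05 was given for 14 members, all with negative fold changes, beside 4.28% of all genes in that direction. They were the 11 named above with cdc6, orc1 and rrm2.

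Of 42 further replication factors 3 were lower and 1 was higher by limma, with a median of -0.48, where 2.18% of all genes were lower and 2.31% higher. The single higher gene is about the number that the share over all genes gives. At an unadjusted p under 0.05, 18 were lower and 3 higher, beside 9.17% and 9.03% of all genes. With edgeR 3 were lower and 2 higher, beside 2.21% and 2.46%, and with DESeq2 8 and 2, beside 3.21% and 3.49%. The fork protein donson was at 11.3, 29.4 and 21.8 in wild type and at 3.75, 2.15 and 3.09 in the mutant, and fell by 2.37 on the log2 scale (SE 0.47, limma, Benjamini-Hochberg adjusted p = 0.0211). The helicase recql4, which takes part in starting replication, fell by 1.81, and chaf1b, a subunit of the complex that puts histones on new DNA, fell by 1.94. The fork protection gene timeless rose, from 296, 264 and 302 in wild type to 485, 428 and 571 in the mutant (0.78, SE 0.17, limma adjusted p = 0.0279), and each mutant library was above each wild type library. Its binding partner tipin was at 21.7, 21.6 and 25.7 against 48.7, 61.4 and 47.4 and just missed the threshold (1.15, SE 0.29, limma adjusted p = 0.0521). The calls of donson, recql4 and timeless were lost without replicate 2 or 3 of wild type or replicate 1 or 3 of the mutant (limma adjusted p from 0.0551 to 0.175), and that of chaf1b also without wild type replicate 1 (0.0754 to 0.149). With wild type replicate 1 and mutant replicate 2 removed, 15 of the 42 were lower and 3 higher, where 11.8% of all genes were called in each direction.

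Of 34 tested genes that drive or restrain entry into S phase, 4 fell and 0 rose by limma, beside 2.18% and 2.31% of all genes, with a median of -0.34. On the recovered reads edgeR called 4 lower and 0 higher (2.21% and 2.46% of all genes), and DESeq2 5 and 0 (3.21% and 3.49%). Among 34 genes, 0 higher is about what these shares give. At an unadjusted p under 0.05 there were 12 lower and 1 higher, beside 9.17% and 9.03% of all genes. Cyclin A2, ccna2, the partner of the S phase kinase cdk2, fell by 2.62 on the log2 scale (SE 0.55, Benjamini-Hochberg adjusted p = 0.0256 in limma). Cyclin E2, ccne2, which acts at the start of S phase, was at 37.8, 43.2 and 56.4 against 17.8, 14.01 and 14.4 (-1.499, SE 0.32, limma adjusted p = 0.0278). The E2F partner tfdp1a fell by 0.84 and the G1 cyclin ccnd1 by 0.64. The repressor e2f8, with 55.8 ± 8.76 against 20.9 ± 10.1 (SD, n = 3), missed the threshold (-1.46, limma adjusted p = 0.0539). All 4 calls were lost without wild type replicate 2 or 3 (limma adjusted p from 0.0675 to 0.2199), and those of ccne2, tfdp1a and ccnd1 also without mutant replicate 1 or 3. With the same pair of libraries removed, 14 of the 34 were lower and 1 higher, beside 11.8% of all genes in each direction.

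Of 20 tested genes of pyrimidine and deoxynucleotide metabolism, 1 fell and 2 rose by limma, beside 2.18% and 2.31% of all genes, with a median of 0.03. With edgeR 0 of them were lower and 2 higher, beside 2.21% and 2.46% of all genes. With DESeq2 2 were lower and 3 higher, beside 3.21% and 3.49%. At an unadjusted p under 0.05 by limma 4 were lower and 5 higher, beside 9.17% and 9.03%. Both CTP synthases rose. The gene ctps1a was at 168, 143 and 145 in wild type and at 441, 586 and 512 in the mutant (1.74, SE 0.17, Benjamini-Hochberg adjusted p = 0.000681 in limma). Its paralog ctps1b was at 364, 432 and 328 against 673, 731 and 827 (0.99, SE 0.16, limma adjusted p = 0.00952). The ctps1a call held with each library left out, and the ctps1b call was lost without mutant replicate 3 (limma adjusted p = 0.0637). The enzyme cad, which opens pyrimidine synthesis, was at 827 ± 339 against 1565 ± 285 (SD, n = 3; 0.98, limma adjusted p = 0.0676), and the uridine phosphorylase upp2 was at 0.64 (limma adjusted p = 0.0677). Deoxycytidine kinase, dck, a salvage enzyme, was at 11.3, 7.85 and 18.8 against 0, 1.08 and 3.09 (-2.66, SE 0.62, limma adjusted p = 0.0383), a call lost with any library but mutant replicate 3 left out (0.0550 to 0.147). Of 26 tested genes of purine synthesis and folate metabolism 2 fell and 0 rose by limma, with a median of 0.03. At an unadjusted p under 0.05, 4 of these were lower and 1 higher, beside 9.17% and 9.03% of all genes. With edgeR and with DESeq2, 2 were lower (2.21% and 3.21% of all genes) and 1 was higher (2.46% and 3.49%). The folate enzyme mthfd1a fell by 1.555 and the purine synthesis enzyme gart by 0.77, while prps1a was at 0.69 (limma adjusted p = 0.0631), atic at -0.83 (0.101) and mthfd2 at -0.78 (0.266). The mthfd1a call was lost without replicate 2 or 3 of wild type or replicate 3 of the mutant (limma adjusted p from 0.0517 to 0.0947), and the gart call with any library but mutant replicate 2 left out (0.0683 to 0.198). With the same pair of libraries removed, 6 of the 20 pyrimidine genes were lower and 5 higher, and 8 of the 26 purine and folate genes lower and 1 higher, beside 11.8% of all genes in each direction.

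Marker lists of cell types held 0 to 2 called genes each, all lower, where 2.18% of all genes were lower and 2.31% higher. The lists held 7 to 20 tested genes, so 1 called gene in a list is already a larger share than that of all genes. The shares of such short lists therefore say little by themselves. Of 20 genes of retinal and neural progenitors, 8 were lower and 0 higher at an unadjusted p under 0.05 (limma). Of the 8 genes of basal epidermis 4 were lower, of the 10 of differentiated muscle 3, and of the 14 of blood and thymus 3. In each of these lists 0 were higher. Over all genes these shares were 9.17% and 9.03%. DESeq2 called 3 genes of basal epidermis, 4 of differentiated muscle and 2 of blood and thymus lower, beside 3.21% of all genes. With edgeR the numbers were 2, 1 and 1, beside 2.21%. Of the 20 progenitor genes edgeR called 2 lower and DESeq2 3. None of the 20 was higher with edgeR or DESeq2, beside 2.46% and 3.49% of all genes. After adjustment 2 fell and 0 rose (limma). They were rx2 and the receptor notch1a. The gene rx2 was at 87, 74 and 104 in wild type and at 37, 31 and 25 in the mutant. The values of notch1a were 358, 409 and 384 against 216, 196 and 206. The summed level of that list was 3363 to 5277 in wild type against 2695 to 3467 in the mutant. Of 14 genes of blood progenitors and thymus 1 fell, the progenitor factor myb (149 ± 12.4 against 75.2 ± 18.1, SD, n = 3), with a sum of 783 to 800.2 against 470.0 to 631. The calls of rx2 and notch1a were lost without replicate 2 or 3 of wild type or replicate 3 of the mutant (limma adjusted p from 0.0505 to 0.0992), and that of myb without those or mutant replicate 1 (0.0909 to 0.207). In basal epidermis the keratins krt5 and krtt1c19e fell, 2 of 8, with a sum of 102030 to 127188 against 41659 to 79687. The krt5 call was lost without wild type replicate 2 or mutant replicate 1 or 3 (limma adjusted p from 0.0513 to 0.0629). The list of differentiated muscle had 1 of 10 lower, casq1a (-2.34, SE 0.21, limma adjusted p = 0.000373). The sum of that list, almost all from genes not called, was 612021 to 794896 against 386292 to 597410. The calls of casq1a and krtt1c19e held with each library left out. The intestinal list had 0 of 7 called by limma, 0 with edgeR and 1 lower with DESeq2. At an unadjusted p under 0.05 (limma), 1 of the 7 was lower and 1 higher. The sums of that list overlapped, at 9382 to 12330.1 in wild type and 9354 to 15044 in the mutant. The germ cell list had 0 of 9 tested genes called (limma, and 0 at an unadjusted p under 0.05 or with edgeR or DESeq2) and sums of 107 to 139 and 89.0 to 134. With wild type replicate 1 and mutant replicate 2 removed, 13 of the 20 progenitor genes, 3 of the 14 blood and thymus genes, 5 of the 8 of basal epidermis, 7 of the 10 of differentiated muscle, 1 of the 7 of intestine and 0 of the 9 germ cell genes were lower by limma, beside 11.8% of all genes. In that fit no gene of the 6 lists was higher (limma), where 11.8% of all genes were. The removed libraries were picked from these same data, and with all 6 libraries 2.18% of all genes were lower. Counts from that fit were not used to compare lists of dividing and of differentiated cells. No marker of the 6 lists was at 0 in every library. The part of these cell types in the levels of the replication genes was not tested.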

How the data were processed

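Per the labels, polyadenylated RNA of pools of 50 whole larvae was sequenced. The genome build was GRCz11, according to the submitters' processing notes. For the aligner and counter: not given in the sources used here. The deposited signal of each of 45602 transcripts was in each library a whole multiple of the value of 1 read (0.937 to 1.08; tolerance 0.001), and is read here as counts scaled by the authors with 1 factor for each library. In wild type replicate 3 the step of 0.990 is harder to tell from rounding. Each transcript also has a deposited log2 fold change, p-value and q-value from a test by the authors, of a kind not stated. The sign of that fold change is mutant over wild type in 99.8% of transcripts.

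Each gene was represented by its transcript with the highest mean (9 members had several transcripts). Genes reaching 1 in 3 or more libraries were tested with limma 3.58.1 in R 4.3.3 on log2(value + 1), with a mean-variance trend, and p-values were adjusted over 22803 genes; this scale understates the change of low genes. Recovered reads were tested with edgeR 4.0.16, DESeq2 1.42.0 and limma-voom as alternatives. The limma, limma-voom, edgeR and DESeq2 fits were first tested on simulated data. There, each gene had the same added spread between replicates, and no library was made to lie apart from its group. The simulation therefore does not show how the fits handle libraries that lie far from their groups, as in these data. The members and lists were chosen with earlier results of these data known. All members may be named; of the other pathway lists, genes were counted per direction and those named are the 5 with the smallest p or fewer, and marker genes named are those called. Counts of different genes are set side by side only for their precision, not as expression, since transcript lengths were not used here, and promoter and protein sequences were not analysed here. Strand and the handling of reads shared by isoforms are not stated.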

Additional observations from a re-analysis of the deposited data

How the results depend on the processing

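With all 6 libraries the number of members lower stayed between 8 and 12 under the other pseudocounts, filters, scalings and tests, and the number higher was 0 in all 19 alternatives. The number lower was 8 with summed transcripts (beside 1.98% of all genes), with 7 shared, pole, pcna, rrm1 and tyms lost and orc1 added. The members lost there have 1 transcript each, so their own values were the same in that fit. With edgeR 11 members were lower (beside 2.21% of all genes) and with DESeq2 12 (beside 3.21%). Leaving out 1 library gave 1 to 12 members lower. Without wild type replicate 1 and mutant replicate 2, which lay far from their groups, the number was 22, beside 11.8% of all genes. The median was then -1.07 and the log2 ratio of the summed level -0.84 (-0.63 with all libraries). In the members these were the wild type library most often lowest and the mutant library most often highest. Their removal therefore widens the difference between the groups, and why they lay apart was not tested. The median over all genes lay between -0.058 and 0.016 in every fit. With the replicate number as a block (replicate block) 11 members were lower (beside 2.14% of all genes), 10 of them shared with the fit without it (tyms lost, gins2 added). The deviations of same-numbered libraries correlated at 0.14, 0.13 and -0.26, and not every library correlated best with its own number. With 3 libraries a group, these values cannot tell whether the libraries were paired by number. Of 834 values of single members under alternatives, 43 lost a call, 20 gained one and 6 changed sign, all 6 uncalled. Their ranges over single libraries left out were -0.15 to 0.37 for rfc3 (-0.40 without wild type replicate 1 and mutant replicate 2), -0.037 to 0.41 for pold2, -0.68 to 0.039 for orc5 and -0.78 to 0.10 for pole2. Counting error limits the members with few reads, above all gins2 and mcm10, whose changes are not well measured at this depth.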
